A study of Mus musculus with 8 samples.

Results

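Hair shafts are built from hair keratins and keratin-associated proteins, and the genes of both kinds were followed over the 8 arrays of a study of p107 and pRb in newborn mouse skin. The members were all probe sets whose single gene symbol in the platform annotation begins with Krtap and a digit, or is one of the hair keratin symbols Krt31 to Krt40 and Krt81 to Krt86. This gave 43 probe sets for 38 genes, of 20380 probe sets with a single symbol for 12393 genes. Of them, 12 probe sets stood for 12 hair keratin genes and 31 for 26 Krtap genes. Another 4 probe sets that list a member among several symbols were left out.

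The samples were whole skin of newborn FVB mice in 4 genotypes with 2 arrays each: wild-type skin (pRb+/+), skin without pRb alone (pRb-/-;p107+/+), without p107 alone (pRb+/+;p107-/-) and without both (pRb-/-;p107-/-). Scores are given below in this order of genotypes. Every array held pooled RNA of 3 animals of 1 genotype. For pRb+/+ skin the p107 status is missing from the labels and was taken as wild-type. Nor do the labels say in which cells pRb was removed or how, whether the 2 pools of a genotype came from separate animals, or the sex of the pups. The study title speaks of pRb-deficient epidermis, so the dermis and other cells in whole skin may have kept pRb. Because a pool hides the spread between animals, the p-values rest only on the spread between arrays of a genotype. That spread was estimated jointly over the 4 genotypes. In whole skin, fewer hair-forming cells and less of a transcript per cell cannot be told apart.

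The deposited value was a score: each probe set had been shifted and scaled to mean 0 and SD 1 over the 8 arrays. A score says where an array lies among the 8, in SDs of that probe set, and it gives neither a level nor a fold change. Scores therefore cannot be compared between genes as amounts of RNA, and how far a probe set stood above background is unknown. A difference below is that of 2 genotype means in these units, with its standard error (SE). A probe set was called when its adjusted p was under 0.05 in limma's linear model without moderation, with Benjamini-Hochberg adjustment over 22626 probe sets.

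As background, a hair shaft is made in the matrix of the follicle bulb, where dividing cells leave the cycle and move up into the medulla, cortex and cuticle. Hair keratins pair as one acidic type I and one basic type II protein to form the filaments of the cortex and cuticle. Keratin-associated proteins, the Krtap products, form the matrix between the filaments: high sulfur and ultra-high sulfur families crosslink them through cysteines, and high glycine-tyrosine families belong to the early cortex. The pocket proteins pRb and p107 bind E2F factors and restrain entry into S phase, and in skin they take part in the exit of keratinocytes from the cell cycle. In newborn mice the first follicles are growing and have begun to make shafts.

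The deleted genes were read first. Rb1, which encodes pRb, scored 1.21 and 1.07 in pRb+/+ skin, -0.22 and 0.36 without pRb, 0.02 and 0.40 without p107, and -1.56 and -1.28 without both. It fell with loss of both (difference -2.56 ± 0.27 SE, adjusted p = 0.0391). Its pRb-/-;p107+/+ and pRb+/+;p107-/- scores overlapped, so Rb1 did not separate these 2 genotypes. Rbl1, which encodes p107, has 2 probe sets, and the first (1424156_at) scored 0.08 and 0.21, then 1.30 and 1.14, then -1.51 and -1.22, then -0.31 and 0.31 in the same order of genotypes. It was lower with p107 loss by 1.51 and 1.22 in the 2 pRb backgrounds, without passing the test (adjusted p = 0.103 and 0.126). Its pRb-/-;p107-/- and pRb+/+ scores overlapped. The second (1425166_at) scored 0.58 and 1.03, then 1.40 and -0.02, then -1.53 and -1.12, then -0.13 and -0.20. Its p107 loss differences were -2.13 ± 0.55 SE and -0.85 ± 0.55 SE (adjusted p = 0.175 and 0.478). Whether the probes read the deleted exons was not looked up here, so these values are a weak check of the labels.

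Hair shaft genes were lower in every genotype that lacked a pocket protein, and lowest without both. Over the 43 members the median score was 1.23 and 1.32 in pRb+/+ skin, 0.29 and 0.30 without pRb, -0.44 and -0.53 without p107, and -1.12 and -1.01 without both. The 2 arrays of a genotype thus lay close together and the 4 genotypes did not overlap in this median. Over all probe sets the array medians lay between -0.25 and 0.22. In 27 of the 43 members the scores themselves fell in that full order with no overlap between any 2 genotypes, an order held by 1.09% of all probe sets. All 4 p107-/- arrays lay below all 4 others in 34 members (8.23% of all probe sets), and both pRb+/+ arrays lay above the other 6 in 35 (7.28%). Both pRb-/-;p107-/- arrays lay below the other 6 in 31 (11.4%), and the p107-/- arrays lay above the other 4 in 2, Krt84 and one Krtap19-1 probe set (7.51%). These patterns were chosen after the scores had been seen.

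**Figure D1:**
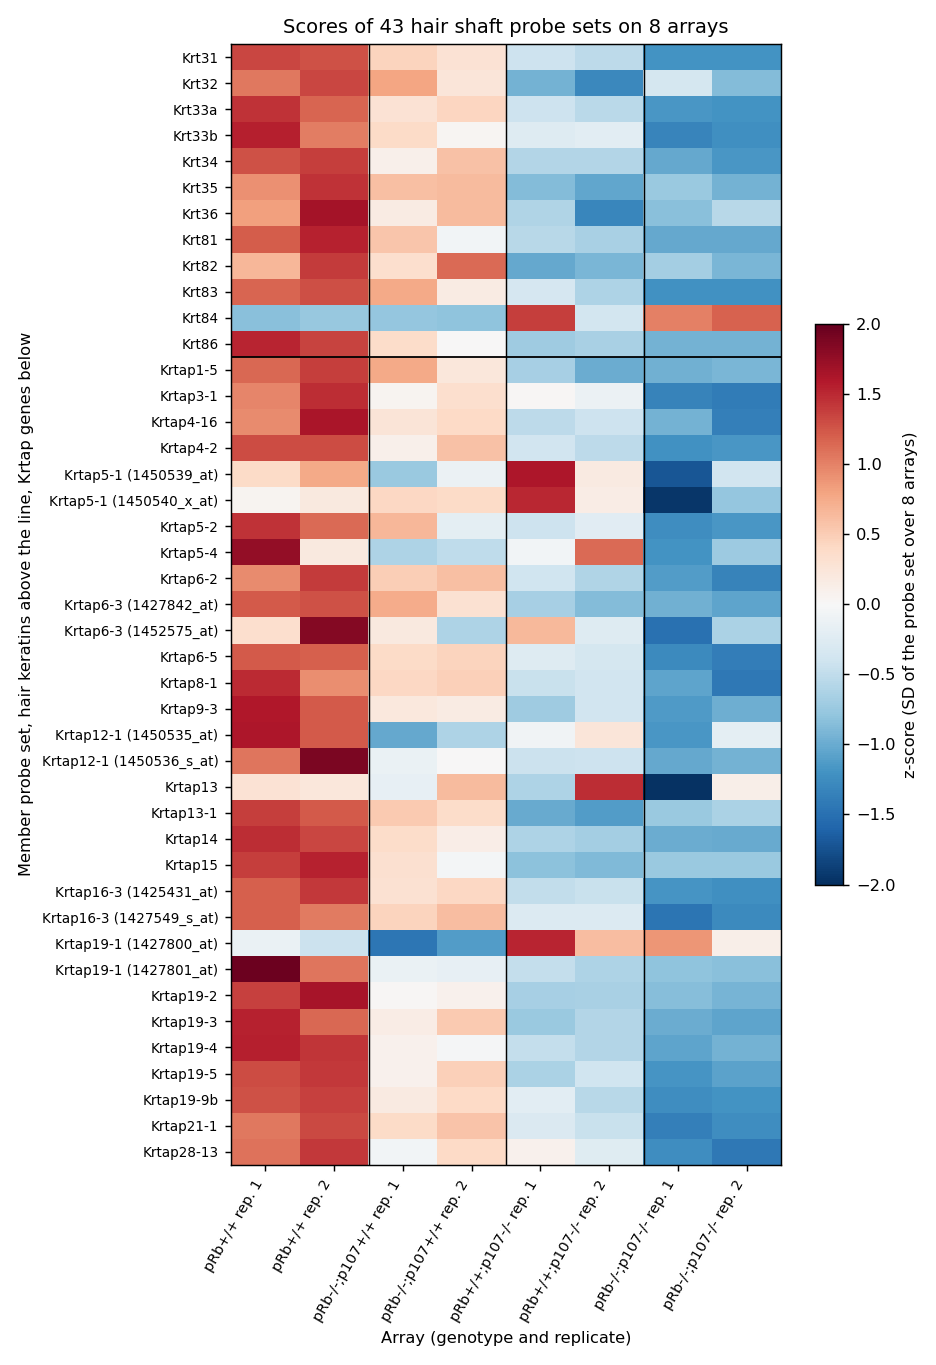
Scores (colour, in SDs of the probe set over 8 arrays) of the 43 member probe sets (rows) on the 8 arrays (columns, grouped by genotype), with the 12 hair keratins above the horizontal line. Most rows run from red on the pRb+/+ arrays to blue on the pRb-/-;p107-/- arrays, while Krt84 and one Krtap19-1 probe set (1427800_at) have all 4 p107-/- arrays above the other 4.

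Since members on several chromosomes moved together, the sequence just upstream of their starts was searched for motifs. RefSeq promoters (GRCm38.p6) were found for 32 of the 38 genes, 7 of the 12 hair keratin and 25 of the 26 Krtap genes. The 250 bases before the start were read on both strands. The letters TATAAA, a form of the TATA box, occurred in 23 of 32 (71.9%, against 13% of 27025 gene promoters). Other forms, such as TATATAAG, were not searched for. CTTTGA, the core of the LEF1 and TCF site, occurred in 12 of 32 (37.5%, against 14%). A HOXC13 site, taken as TTAATNAA, TTAATNAG, TTAATNGA, TTAATNGG, TTTATNAA, TTTATNAG, TTTATNGA or TTTATNGG, occurred in 20 of 32 (62.5%, against 17.7%), and it can share bases with TATAAA. An E2F site (TTTCCCGC, TTTGGCGC, TTTCGCGC or TTTGCCGC) occurred in 0 of 32 (against 1.91%). With so low a share over all promoters, 0 of 32 does not set the members apart. A TATAAA starting 25 to 35 bases before the start was found in 14 of 32 (43.8%, against 2.35%), a window chosen after the positions were seen. Neighbouring genes of a cluster are copies of each other in part and do not count as independent, and a match of letters does not show binding.

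The 140 bases before the start are shown 5′ to 3′ on the gene's strand for 6 genes: the cortical keratins Krt31 and Krt34, Krt84 as the keratin with the opposite direction, Krtap6-5 with the most calls, Krtap16-3 with 2 matching probe sets, and Krtap15, which was not lowest without both. Capitals mark matches to TATAAA and to the LEF1 and TCF, and HOXC13 letters. They lie at chr11:100050552-100050691 (minus strand, Krt31), chr11:100041555-100041694 (minus strand, Krt34), chr15:101532821-101532960 (minus strand, Krt84), chr16:89047900-89048039 (minus strand, Krtap6-5), chr16:88962874-88963013 (minus strand, Krtap16-3), chr16:88828869-88829008 (plus strand, Krtap15).
Krt31: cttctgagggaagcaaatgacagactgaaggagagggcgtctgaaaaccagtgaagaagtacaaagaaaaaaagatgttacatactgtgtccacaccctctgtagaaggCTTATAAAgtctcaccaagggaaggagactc
Krt34: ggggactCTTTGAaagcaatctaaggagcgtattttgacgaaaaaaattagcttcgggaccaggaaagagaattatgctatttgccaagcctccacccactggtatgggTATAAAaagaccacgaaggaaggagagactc
Krt84: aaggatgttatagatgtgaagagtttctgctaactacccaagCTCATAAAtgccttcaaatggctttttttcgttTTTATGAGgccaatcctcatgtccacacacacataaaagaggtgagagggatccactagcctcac
Krtap6-5: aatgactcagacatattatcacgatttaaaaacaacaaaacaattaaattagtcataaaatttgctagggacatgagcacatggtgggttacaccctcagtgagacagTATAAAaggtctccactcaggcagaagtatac
Krtap16-3: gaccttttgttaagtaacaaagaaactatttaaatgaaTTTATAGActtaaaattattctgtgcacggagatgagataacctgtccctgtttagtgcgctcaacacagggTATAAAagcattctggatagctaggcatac
Krtap15: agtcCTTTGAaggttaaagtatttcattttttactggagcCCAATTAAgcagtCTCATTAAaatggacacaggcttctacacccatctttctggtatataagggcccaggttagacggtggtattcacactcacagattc
Krt31, Krt34, Krtap6-5 and Krtap16-3 carry TATAAA starting 29, 31, 32 and 30 bases before the start. The printed stretch of Krt84 and of Krtap15 holds HOXC13 matches and no TATAAA, but that of Krtap15 holds the unsearched letters TATATAAG. Further up, Krt84 has a TATAAA starting 206 bases before the start. Krtap14, Krtap19-2, Krtap19-3 and Krtap19-4 fell with loss of both without a TATAAA in the searched bases. Each of them holds TATATAAG there, so the lack of TATAAA does not mean the lack of a TATA box. Krtap5-1, Krtap5-2 and Krtap13 were called in no comparison, and their nearest TATAAA starts 30, 31 and 49 bases before the start. Krt36, Krt82, Krtap5-4 and Krtap19-1 had neither a call nor a TATAAA, though Krt36 and Krtap19-1 hold TATATAAG. Whether TATAAA goes with the lower scores was not tested.

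With loss of both proteins, 30 of the 43 members fell and 0 rose, against 2.94% of all probe sets called in either direction and 1.54% called lower. The called differences ran from -2.59 to -1.99, and 41 of 43 members were negative (median -2.40, against 0.10 over all probe sets). Hair keratins and Krtap genes had close shares of calls: 8 of 12 keratin probe sets (median -2.39) and 22 of 31 Krtap probe sets (median -2.41) fell. Averaged over the pRb status, p107 loss also went with 30 lower calls and no higher ones (3.04% of all probe sets called, 1.78% lower and 1.26% higher), in 9 keratin and 21 Krtap probe sets. The median of that averaged difference was -1.63 over the members and 0.17 over all probe sets.

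Within single backgrounds fewer members passed. In pRb+/+ skin, p107 loss lowered 11 members (0.42% of all probe sets called, 0.217% lower) by 1.40 to 2.36, and 38 of 43 members were negative. At an unadjusted p under 0.05, 36 were lower there (7.69% of all probe sets). In pRb-/- skin it lowered 10 members (1.37% of all called, 0.822% lower and 0.548% higher) by 1.03 to 1.89, and 40 of 43 were negative. The median differences were -1.77 and -1.42, against 0.35 and -0.10 over all probe sets. Both comparisons called Krt31, Krt33a, Krtap6-5, Krtap13-1, Krtap14, both probe sets of Krtap16-3 and Krtap19-4. Krt86, Krtap15 and Krtap19-2 passed in pRb+/+ but not in pRb-/- skin, and Krtap19-9b and Krtap21-1 in pRb-/- but not in pRb+/+ skin. The difference between the backgrounds, tested as the interaction, passed in 0 members with or without moderation (0% of all probe sets). At an unadjusted p under 0.05 there were 9 of 43 members, against 13.1% of all probe sets. Of these 9, 2 were negative, against 8.76% of all probe sets being negative at that threshold. Whatever the p, the interaction was positive in 33 of 43 members (median 0.43, against -0.44 over all probe sets).

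Loss of pRb with p107 kept gave 0 calls over the whole array, by the unmoderated and by the moderated limma test. At an unadjusted p under 0.05, 32 of 43 members were lower, against 5.13% of all probe sets lower and 13.4% in either direction. The members' median difference was -0.99, against 0.12 over all probe sets, and 41 of 43 were negative. Loss of pRb in p107-/- skin gave 1 member call, Krtap6-5 (0.256% of all probe sets called, 0.0796% lower). Here the median was -0.68, against -0.33 over all probe sets, and 36 of 43 members were negative, 19 of them at an unadjusted p under 0.05 (7.27% of all probe sets). The comparisons share groups, the pRb+/+ and pRb-/-;p107-/- arrays above all, so their differences are not separate evidence.

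The calls came with small residual spreads, and their number depended on the choice of test. The median residual SD of the members was 0.211, against 0.808 over all probe sets, and it ran from 0.053 (Krtap6-5) to 1.081 (Krtap13). As every probe set was scaled to SD 1, a small residual SD restates that most of its variation lay between genotypes. It does not show that the members were measured more precisely. The moderated test called 0 members in every comparison. The 30 calls for loss of both became 19 when 1 of the pRb-null, p107-carrying arrays was left out, and 0 when 1 of the other 6 was left out. The 30 calls for p107 loss averaged over pRb status became 3 and 4 without pRb+/+ replicate 1 and 2, 5 and 9 without pRb-/-;p107+/+ replicate 1 and 2, and 0 without any one p107-/- array. In the single-background comparisons 0 calls remained without any one array. The direction held: with each array left out in turn, 41 of 43 members stayed negative for loss of both, and 81.4% to 86% had an unadjusted p under 0.05, against 14.6% to 22.5% of all probe sets.

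**Figure D2:**
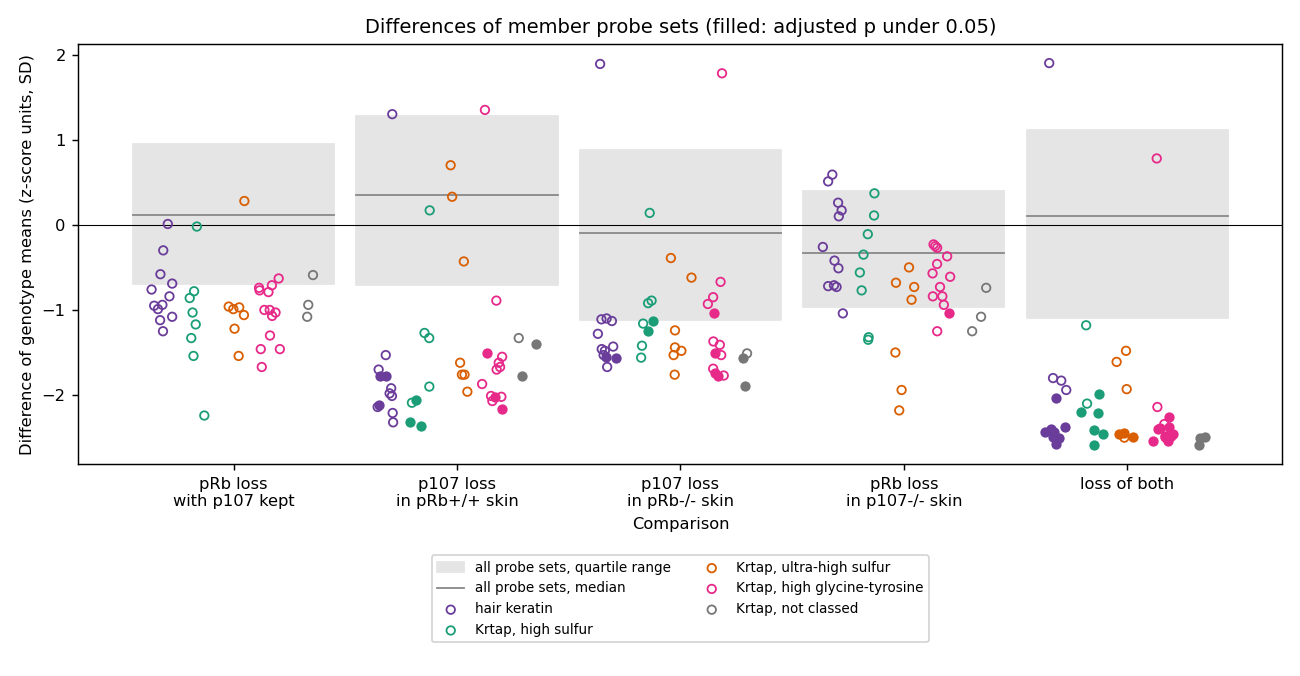
Differences of genotype means (vertical axis, in score units) of each member in 5 comparisons, by keratin or Krtap class. Filled points had an adjusted p under 0.05, and the grey band and line give the quartile range and median of all probe sets. With loss of both, most members lie between -2.59 and -1.99 and only Krt84 and one Krtap19-1 probe set lie above 0.

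Type I hair keratins, the acidic partners, were all negative with loss of both, and 5 of 7 fell. Krt31, a main type I keratin of the cortex, scored 1.33 and 1.28 in pRb+/+, 0.44 and 0.29 in pRb-/-;p107+/+, -0.42 and -0.53 in pRb+/+;p107-/-, and -1.20 and -1.19 in pRb-/-;p107-/- skin. The 4 genotypes did not overlap, and the steps between them were several times the gap between arrays of a genotype. Its difference was -2.50 ± 0.07 SE with loss of both (adjusted p = 0.00889), -1.78 for p107 loss in pRb+/+ skin (0.0313) and -1.56 in pRb-/- skin (0.0228).

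Krt33a, another cortical type I keratin, scored 1.45 and 1.16, then 0.29 and 0.43, then -0.42 and -0.54, then -1.17 and -1.20 in the same order. Its profile was nearly that of Krt31, and it fell with loss of both (-2.49 ± 0.12 SE, adjusted p = 0.0149). Krt33b scored 1.56 and 1.03, then 0.39 and 0.04, then -0.26 and -0.21, then -1.32 and -1.23, and fell by 2.57 (adjusted p = 0.0296). Krt34, also of the cortex, scored 1.28 and 1.39, then 0.10 and 0.58, then -0.58 and -0.59, then -1.02 and -1.16, and fell by 2.43 (adjusted p = 0.0224). In these cortical keratins the genotypes were ordered without overlap.

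Krt35, one of the first hair keratins to appear above the matrix, had another order. It scored 0.92 and 1.45, then 0.60 and 0.63, then -0.86 and -1.04, then -0.75 and -0.95. The 2 p107-/- genotypes overlapped, and pRb loss in p107-/- skin moved it by only 0.10 ± 0.21 SE (adjusted p = 0.911), while it fell by 2.04 with loss of both (adjusted p = 0.0383). Krt32, a cuticle keratin, scored 1.06 and 1.34, then 0.79 and 0.24, then -0.94 and -1.29, then -0.35 and -0.86. It was lowest without p107 alone, with a difference of -1.80 ± 0.31 SE for loss of both (adjusted p = 0.0759). Krt36 scored 0.82 and 1.67, then 0.17 and 0.64, then -0.60 and -1.31, then -0.84 and -0.55, and its difference for loss of both was -1.94 ± 0.44 SE (adjusted p = 0.113). In Krt35, Krt32 and Krt36 the p107-/- arrays were low whatever the pRb status, but the difference between these keratins and the cortical ones was not tested.

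Among the type II hair keratins, the basic partners, 3 of 5 fell with loss of both. Krt81 scored 1.21 and 1.54, then 0.56 and -0.05, then -0.56 and -0.65, then -1.02 and -1.03, and fell by 2.40 (adjusted p = 0.0379). Krt83 scored 1.16 and 1.29, then 0.75 and 0.17, then -0.34 and -0.61, then -1.21 and -1.21, and fell by 2.43 (adjusted p = 0.033). Krt86 scored 1.53 and 1.35, then 0.37 and 0.00, then -0.71 and -0.65, then -0.94 and -0.94, and fell by 2.38 (adjusted p = 0.0186). All 3, known from the cortex, kept the order of Krt31 with no overlap between genotypes. Krt86 alone of the type II keratins passed for p107 loss in pRb+/+ skin (-2.12 ± 0.15 SE, adjusted p = 0.0446).

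The other two type II keratins stood apart. Krt82, a cuticle keratin, scored 0.67 and 1.40, then 0.34 and 1.13, then -1.03 and -0.91, then -0.68 and -0.92. Its arrays split by p107 and not by pRb, with a difference of -1.83 ± 0.39 SE for loss of both (adjusted p = 0.103). Krt84, known from tongue papillae and nail, scored -0.84 and -0.76, then -0.78 and -0.81, then 1.38 and -0.37, then 1.01 and 1.18. All its p107-/- arrays were above the others, although the 2 pRb+/+;p107-/- arrays were far apart, and its difference of 1.90 ± 0.62 SE for loss of both did not pass (adjusted p = 0.196).

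**Figure D3:**
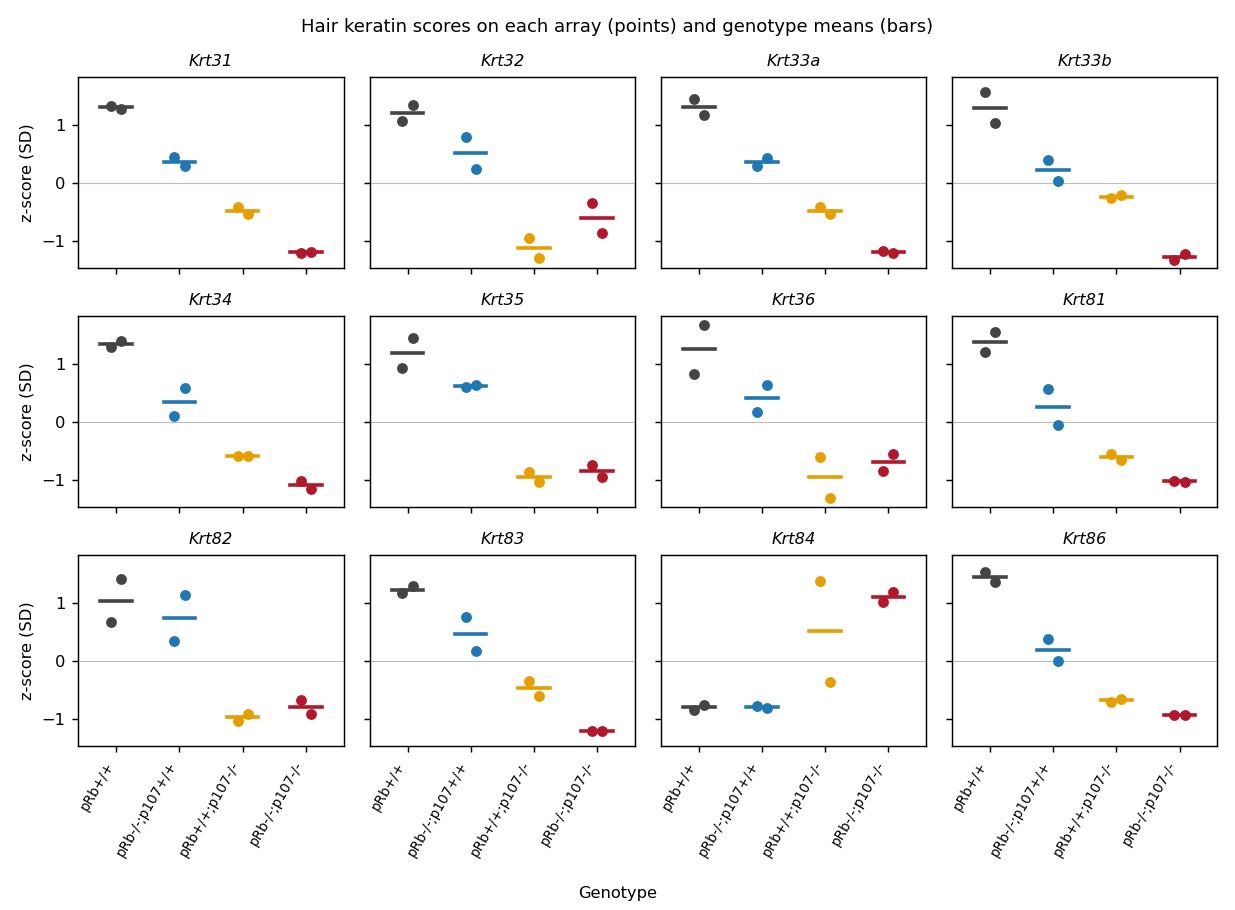
Scores of the 12 hair keratins (one panel each, vertical axis in SDs) on the 2 arrays of each genotype (points) with the genotype mean (bar). Krt31, Krt33a, Krt33b, Krt34, Krt81, Krt83 and Krt86 step down over the 4 genotypes, Krt32, Krt35, Krt36 and Krt82 split mainly by p107, and Krt84 has its high scores on p107-/- arrays.

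The Krtap genes were classed by family number from general knowledge of these families, since protein sequences were not used here, and this was done after the scores had been seen. Of the 31 probe sets, 13 belonged to high glycine-tyrosine families, 8 to high sulfur and 7 to ultra-high sulfur families, and 3 were not classed. With loss of both, 10 of 13 high glycine-tyrosine, 6 of 8 high sulfur, 3 of 7 ultra-high sulfur and all 3 unclassed probe sets fell. Their median differences were -2.40, -2.21, -2.45 and -2.50. The median residual SD was 0.177, 0.223 and 0.33 in the high glycine-tyrosine, high sulfur and ultra-high sulfur classes. On these scaled scores it is low where most of the variation lies between genotypes. Differences between the classes were not tested.

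Krtap6-5, a high glycine-tyrosine gene, had the smallest residual spread. It scored 1.23 and 1.20, then 0.39 and 0.44, then -0.26 and -0.35, then -1.27 and -1.38. It stepped down over the 4 genotypes without overlap. It fell by 2.54 with loss of both (SE 0.05, adjusted p = 0.00665), by 1.51 with p107 loss in pRb+/+ skin (0.0313), by 1.74 with p107 loss in pRb-/- skin (0.0173) and by 1.03 with pRb loss in p107-/- skin (0.0393). Krtap6-2 scored 0.95 and 1.40, then 0.49 and 0.60, then -0.40 and -0.60, then -1.12 and -1.33, and fell by 2.40 with loss of both (adjusted p = 0.025). Krtap6-3 was read by 2 probe sets that differed: 1427842_at fell with loss of both (-2.26 ± 0.18 SE, adjusted p = 0.0236), and 1452575_at, whose pRb+/+ arrays scored 0.33 and 1.83, did not pass (-2.14 ± 0.75 SE, adjusted p = 0.214).

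In the Krtap19 family, also high in glycine and tyrosine, 5 of 7 probe sets fell with loss of both. Krtap19-4 scored 1.55 and 1.43, then 0.09 and -0.02, then -0.48 and -0.58, then -1.05 and -0.94. Its largest step lay between pRb+/+ and all other genotypes, and it fell by 2.48 with loss of both (SE 0.07, adjusted p = 0.00893). Krtap19-2 scored 1.36 and 1.65, then 0.02 and 0.08, then -0.66 and -0.65, then -0.85 and -0.93, and fell by 2.39 (adjusted p = 0.0135). Krtap19-3 fell by 2.37 (0.0267), Krtap19-5 fell by 2.48 (0.0195) and Krtap19-9b fell by 2.54 (0.0181).

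The 2 probe sets of Krtap19-1 went opposite ways. The first (1427801_at) scored 1.96 and 1.07, then -0.13 and -0.17, then -0.48 and -0.61, then -0.81 and -0.83, with a difference of -2.34 ± 0.32 SE for loss of both (adjusted p = 0.0534). The second (1427800_at) scored -0.14 and -0.43, then -1.44 and -1.12, then 1.52 and 0.62, then 0.88 and 0.12, with a difference of 0.78 ± 0.44 SE (adjusted p = 0.391). All p107-/- arrays were above the others on the second and below them on the first, so the direction of Krtap19-1 is not settled. Genes of a Krtap family are near copies of each other in part, and a probe set may read more than 1 of them. The other high glycine-tyrosine genes fell with loss of both: Krtap8-1 fell by 2.46 (adjusted p = 0.035) and Krtap21-1 fell by 2.49 (0.0164).

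Of the high sulfur genes, Krtap13-1 scored 1.38 and 1.23, then 0.52 and 0.37, then -1.01 and -1.11, then -0.74 and -0.63. It was lowest without p107 alone, where it had the largest called difference among the members for p107 loss in pRb+/+ skin (-2.36 ± 0.09 SE, adjusted p = 0.0313). Krtap15 scored 1.39 and 1.54, then 0.32 and -0.04, then -0.82 and -0.89, then -0.75 and -0.75. It was again not lowest in pRb-/-;p107-/- skin, and it fell by 2.32 with p107 loss in pRb+/+ skin (adjusted p = 0.0446). Krtap14 scored 1.48 and 1.34, then 0.36 and 0.13, then -0.62 and -0.68, then -1.0 and -1.01, in the order of Krt31, and fell by 2.41 with loss of both (adjusted p = 0.0113).

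Krtap1-5 scored 1.15 and 1.38, then 0.75 and 0.23, then -0.66 and -0.99, then -0.96 and -0.91, and fell by 2.20 with loss of both (adjusted p = 0.0396). Krtap3-1 scored 0.97 and 1.48, then 0.06 and 0.33, then 0.02 and -0.12, then -1.33 and -1.40, and fell by 2.59 (adjusted p = 0.0254). In Krtap3-1 the 2 single-loss genotypes were nearly level, unlike in Krtap1-5. Krtap13 had the widest spread of all members, with -0.61 and 1.47 without p107 and -1.97 and 0.12 without both, and its difference of -1.18 ± 1.08 SE for loss of both did not pass (adjusted p = 0.58). Of the 2 probe sets of Krtap12-1, 1450536_s_at fell by 2.46 (adjusted p = 0.0455) and 1450535_at did not pass (-2.10 ± 0.41 SE, adjusted p = 0.0924). The latter had the lowest member difference for pRb loss with p107 kept, -2.24 ± 0.41 SE (adjusted p = 0.185).

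Among the ultra-high sulfur genes, Krtap4-2 scored 1.30 and 1.31, then 0.10 and 0.58, then -0.38 and -0.53, then -1.21 and -1.17, and fell by 2.49 with loss of both (adjusted p = 0.0207). Krtap4-16 fell by 2.45 (0.0456) and Krtap9-3 by 2.46 (0.0224).

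In the Krtap5 family, cuticle genes on chromosome 7, 0 of the 4 probe sets passed in any comparison, by the unmoderated or the moderated test, and 1 of 4 had an unadjusted p under 0.05 for p107 loss in either background (19.4% of all probe sets in pRb+/+ and 19.2% in pRb-/- skin). Krtap5-1 (1450539_at) scored 0.38 and 0.76, then -0.74 and -0.11, then 1.62 and 0.18, then -1.71 and -0.38, with wide gaps between arrays of a genotype. Its second probe set (1450540_x_at) scored 0.05 and 0.20, then 0.42 and 0.39, then 1.50 and 0.15, then -1.94 and -0.77. Krtap5-4 scored 1.75 and 0.20, then -0.62 and -0.51, then -0.05 and 1.14, then -1.20 and -0.72. In these 3 probe sets the pRb+/+;p107-/- arrays were not below the pRb+/+ arrays as a group. Krtap5-2 scored 1.45 and 1.13, then 0.66 and -0.19, then -0.42 and -0.23, then -1.25 and -1.16, in the order seen in most members, and narrowly missed the threshold for loss of both (-2.50 ± 0.33 SE, adjusted p = 0.0521). The median residual SD of the family was 0.673.

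Both probe sets of Krtap16-3 were called in the 2 p107 comparisons and for loss of both. The first (1425431_at) scored 1.20 and 1.41, then 0.30 and 0.42, then -0.49 and -0.44, then -1.18 and -1.22. The second (1427549_s_at) scored 1.20 and 1.04, then 0.44 and 0.62, then -0.28 and -0.28, then -1.46 and -1.27. They gave -2.50 ± 0.09 SE and -2.49 ± 0.11 SE for loss of both (adjusted p = 0.0112 and 0.0121). Krtap28-13, the sole member on chromosome 1, scored 1.08 and 1.42, then -0.06 and 0.40, then 0.08 and -0.25, then -1.24 and -1.43. Its 2 single-loss genotypes overlapped, and it fell by 2.59 with loss of both (adjusted p = 0.0324).

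By chromosome, 10 of 12 probe sets on chromosome 11, where the type I keratins lie beside several Krtap genes, fell with loss of both. On chromosome 15, which holds the type II keratins, 3 of 5 fell, and on chromosome 16, which holds most of the Krtap genes, 15 of 19 fell. The lower scores were spread over gene clusters on different chromosomes. Outside these, 1 of 2 probe sets on chromosome 10 fell and 0 of 4 on chromosome 7.

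For the 30 members lower with loss of both, the place of the single-loss genotypes was set on a scale from the pRb-/-;p107-/- mean (0%) to the pRb+/+ mean (100%). This description was chosen after the scores had been seen. The pRb-/-;p107+/+ mean lay at a median of 59.8% (from 37.3% to 76.1%) and the pRb+/+;p107-/- mean at 26.3% (from -18.5% to 50.9%). Hair keratins had medians of 60.5% and 24.6%, close to 59.8% and 26.3% in Krtap genes. The p107-null mean of high sulfur genes had a median of 9.86% over 6 probe sets, against 28% over 3 ultra-high sulfur and 27.5% over 10 high glycine-tyrosine probe sets, and these differences were not tested. Krtap13-1 (-18.5%), Krt35 (-4.84%) and Krtap15 (-4.78%) lay below 0%, that is, lower without p107 alone than without both.

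**Figure D4:**
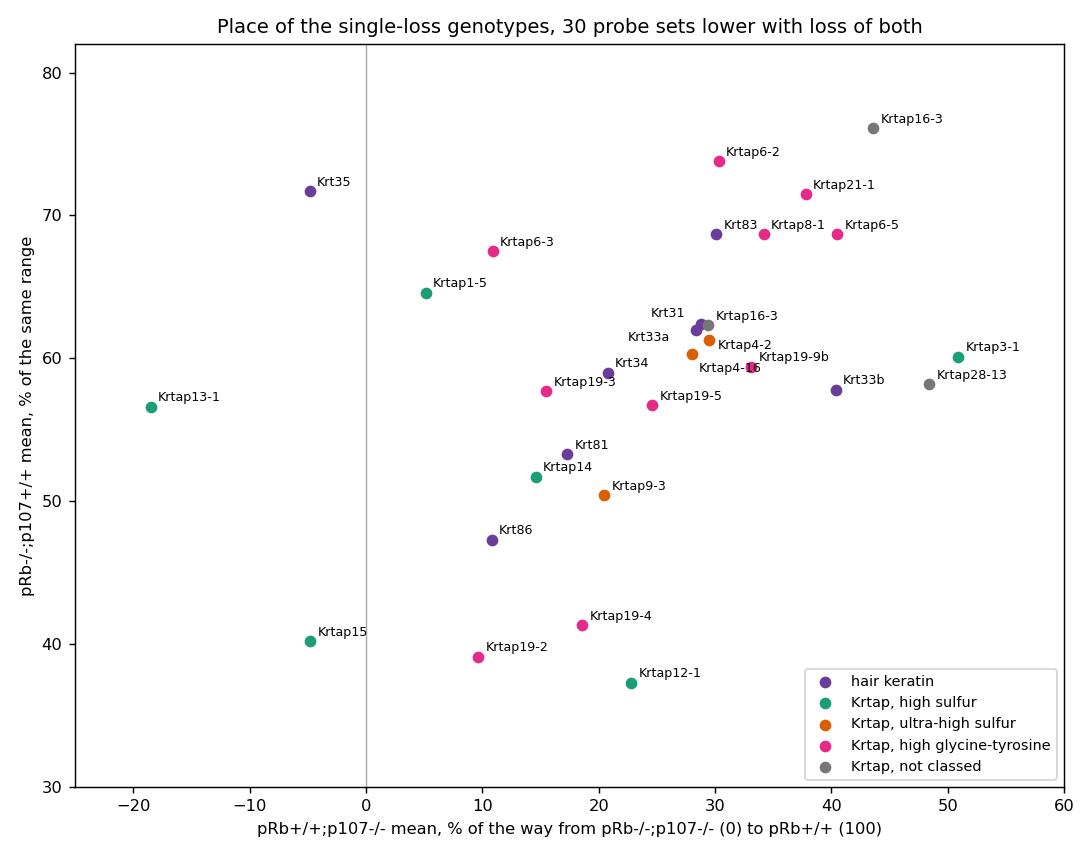
Place of the pRb+/+;p107-/- mean (horizontal axis, %) and of the pRb-/-;p107+/+ mean (vertical axis, %) between the pRb-/-;p107-/- mean (0) and the pRb+/+ mean (100), for the 30 probe sets lower with loss of both; colour gives the class. All points have a higher pRb-/-;p107+/+ than pRb+/+;p107-/- place, and Krtap13-1, Krt35 and Krtap15 lie left of 0.

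Where keratins and Krtap genes differed most was pRb loss in p107-/- skin. There 7 of 12 keratins were negative (median -0.34) and 29 of 31 Krtap probe sets (median -0.73), against a median of -0.33 over all probe sets. The keratin median turned to 0.08 after quantile normalization of the scores, with 6 of 12 negative, and was -0.06 after subtracting array medians. The Krtap median stayed negative, at -0.37 and -0.46. Among the keratins Krt33b had -1.04, Krt83 -0.73, Krt31 -0.72 and Krt33a -0.71, whereas Krt32 had 0.51, Krt36 0.26, Krt82 0.17 and Krt35 0.10. No keratin passed in this comparison by either limma test (5 of 12 at an unadjusted p under 0.05, against 12% of all probe sets), and the difference between keratins and Krtap genes was not tested.

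Other genes of the shaft were read from a list of 18, of which 14 were on the array with 19 probe sets. With loss of both, 5 fell and 1 rose, against 1.54% of all probe sets called lower and 1.41% higher. Gprc5d, a receptor of hair-forming cells, scored 1.21 and 1.27, then 0.54 and 0.47, then -0.54 and -0.59, then -1.14 and -1.22, in the same steps as Krt31, and fell by 2.42 (adjusted p = 0.00665). Padi3, which deiminates shaft proteins, fell by 2.41 (0.0192), Tchh, the trichohyalin of medulla and inner root sheath, by 2.32 (0.0271) and S100a3, a calcium-binding protein of the cuticle, by 2.24 (0.0481). Selenbp1 fell by 2.42 on one probe set (1450699_at, adjusted p = 0.00889) and did not pass on the other (1417580_s_at, -2.38 ± 0.40 SE, adjusted p = 0.0736). Dsc1, a desmosomal cadherin that the upper epidermis also makes, rose by 2.62 (0.0188). For p107 loss averaged over pRb status 6 fell, with Ly6g6d added, and 2 rose, with Tgm3, a transglutaminase of epidermis and hair, added. The shares of all probe sets were 1.78% lower and 1.26% higher.

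Keratins of the inner root sheath and companion layer, the tube that guides the shaft, were also lower. Of 6 probe sets, 4 fell with loss of both, against 1.54% of all probe sets. They were Krt25 by 2.34 (adjusted p = 0.0324), Krt27 by 2.36 (0.0345), Krt71 by 1.94 (0.0434) and Krt72 by 2.33 (0.0358). Krt75 of the companion layer passed in the averaged p107 comparison (-1.82, adjusted p = 0.0418), and Krt79 did not pass. In these genes the pRb-/-;p107+/+ arrays stayed high. The list medians were 0.80 and 0.98 in pRb+/+, 1.01 and 0.64 in pRb-/-;p107+/+, -0.58 and -0.52 in pRb+/+;p107-/- and -1.07 and -1.25 in pRb-/-;p107-/- skin.

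Transcription factors of the hair matrix and shaft had calls in both directions. Of all probe sets, 1.54% were called lower and 1.41% higher with loss of both. Of 39 probe sets for 20 genes, 1 fell (Foxq1, a factor of the medulla, by 1.85, adjusted p = 0.0434) and 1 rose (Ovol1, by 2.15, adjusted p = 0.0207) with loss of both, with a median of 0.08. The other probe set of Ovol1 did not pass. In the averaged p107 comparison Foxq1 fell, and 1 probe set of Msx1 and 2 of Cux1 rose (1.78% of all probe sets lower, 1.26% higher). The other probe sets of Msx1 and Cux1 did not pass. Hoxc13, which activates hair keratin genes, scored 1.89 and 0.81, then -1.14 and 0.26, then -0.24 and -0.55, then -1.02 and -0.01. The pRb+/+ arrays were its highest, and its difference for loss of both was -1.86 ± 0.73 SE (adjusted p = 0.25). Msx2, a factor of the matrix, had -2.06 ± 0.50 SE (adjusted p = 0.129). Lef1, which carries Wnt signals to the matrix, had -1.07 ± 0.97 SE (adjusted p = 0.577), and Foxn1, needed for a normal shaft, had 0.84 ± 1.08 SE (adjusted p = 0.7).

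Among 36 probe sets for 22 genes of follicle signalling, 2 fell and 0 rose with loss of both (1.54% of all probe sets lower, 1.41% higher). Both were of Wnt5a, a Wnt ligand of the dermal papilla and matrix (-2.30 ± 0.18 SE and -1.91 ± 0.06 SE, adjusted p = 0.0236 and 0.00889). The keratins of the epidermis and outer root sheath had a median of 0.58 over 16 probe sets for loss of both, inside the quartile range of all probe sets (-1.10 to 1.11), and 5 of 16 were negative. Of these, Krt77 rose by 2.40 (adjusted p = 0.0112) and Krt16 by 2.53 (0.0377), and Krt6b fell by 0.94 (0.0379). Krt5 and Krt14, which mark basal keratinocytes, did not pass in this comparison.

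Markers of other cells in whole skin were read beside the hair genes, and their part in the lower hair scores was not tested. Over all probe sets, 1.54% were called lower with loss of both and 1.41% higher. Of 13 mast cell probe sets, 4 rose and 1 (Mcpt4) fell with loss of both. Their list median was between -0.89 and -0.61 on the p107+/+ arrays and between 0.47 and 0.95 on the p107-/- arrays. Fibroblast markers had list medians of 0.94 and 0.81 in pRb+/+;p107-/- skin and -0.64 and -1.47 in pRb-/-;p107-/- skin, where 3 of 28 probe sets fell against pRb+/+. Of the melanocyte markers, 2 of 18 probe sets fell with loss of both, 1 of Tyr (by 1.99, adjusted p = 0.0149) and that of Dct (by 2.46, adjusted p = 0.0209). The other probe sets of Tyr did not pass. For adipocytes 1 of 21 and for skeletal muscle 2 of 25 probe sets fell. Spiked-in poly-A control probe sets, added to the RNA before labelling, had mean scores of 0.19 to 1.38 where p107 was kept and of -0.96 to -0.55 where it was lost. Their highest scores were on the pRb-/-;p107+/+ arrays. The hybridization controls had -0.03 to 2.05 and -0.80 to -0.32, so both kinds were lower on all p107-/- arrays, as most hair genes were. The Gapdh control probe sets had mean scores of -1.47 and -1.52 in pRb+/+ skin and between -0.03 and 0.84 in the other genotypes. The beta-actin control probe sets had 0.30 and -0.86, then 1.21 and 1.41, then 0.05 and -0.02, then -1.0 and -1.08, lowest without both. The part of these controls in the results was not tested.

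**Figure D5:**
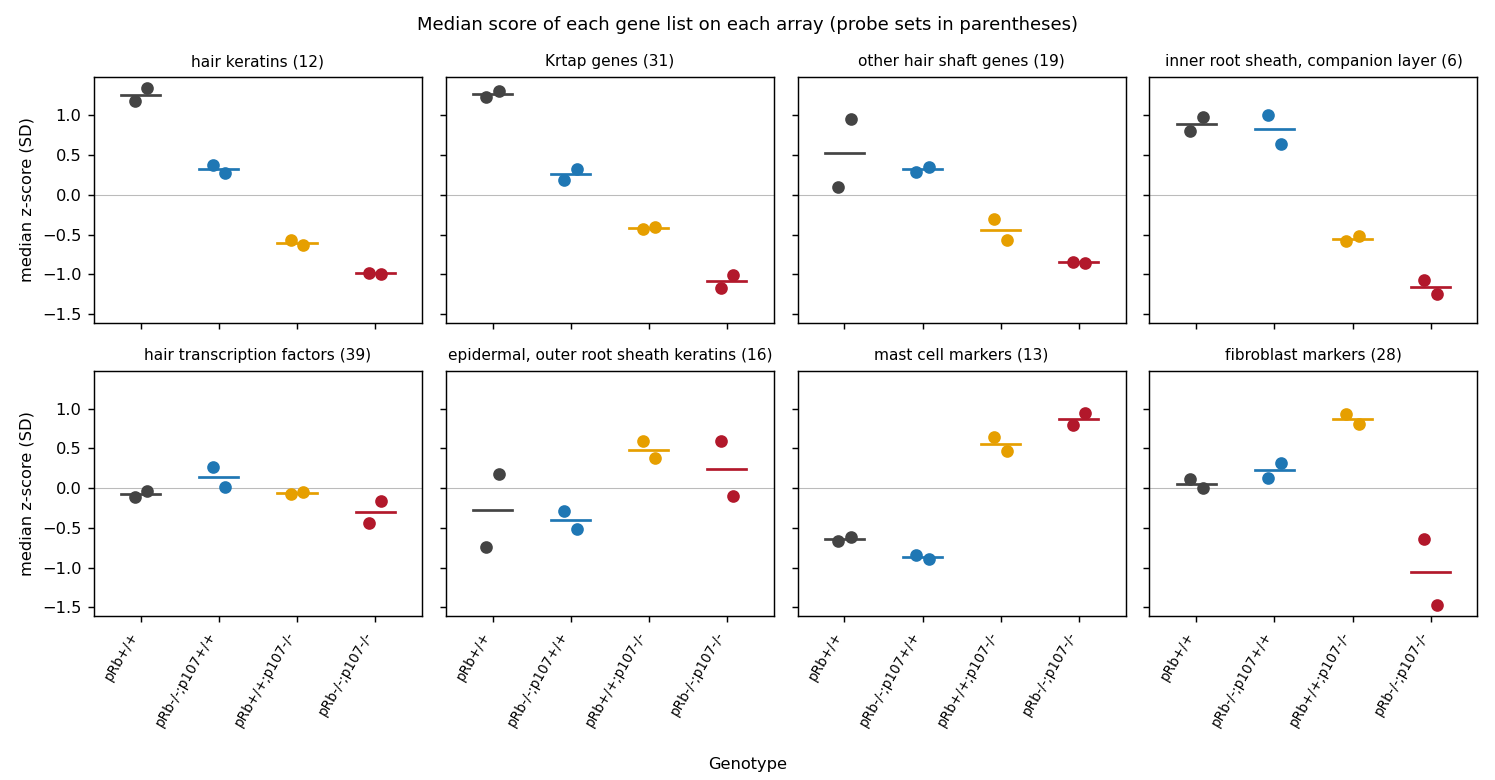
Median score (vertical axis, in SDs) of hair keratins, Krtap genes and 6 other gene lists on the 2 arrays of each genotype (points), with their mean (bar); the number of probe sets is in parentheses. Hair keratins, Krtap genes, other hair shaft genes and inner root sheath keratins lie below 0 on all p107-/- arrays. Hair transcription factors also lie below 0 there but stay between -0.44 and 0.27 over all arrays. Mast cell markers lie above 0 on the p107-/- arrays.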

How the data were processed

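Total RNA from 30 mg of whole skin was pooled from 3 animals per array and hybridised to 1-colour Affymetrix mouse arrays, per the labels' protocols and series text. The deposited scores come from RMA (version not given in the sources used here), per the submitters' processing notes, followed by standardisation: in the file, each of 22690 rows has a mean of 0 and an SD of 1, and each score is at most 2.47 in size. No source used here records that step or its scale, and background signal, levels and folds cannot be read from the deposited scores. After removal of 64 control probe sets, limma 3.58.1 in R 4.3.3 fitted 1 mean per genotype to all 8 arrays (4 residual degrees of freedom). The unmoderated 2-sided test was used because scaling a probe set leaves it unchanged, with Benjamini-Hochberg adjustment over 22626 probe sets and a threshold of 0.05. The procedure was tested on simulated data with shifts far larger than the noise, so its power on these data was not measured. Symbols came from the platform annotation: 20380 probe sets had 1 symbol, 691 several and 1555 none. Members and gene lists were chosen with earlier results of these data known. Named were all hair keratins, all called members, the 2 highest and lowest differences per comparison, the lowest-numbered gene of each family, and from other lists the called genes with Hoxc13, Foxn1, Lef1, Msx2, Dsg4, Rb1 and Rbl1; Dsg4 had no probe set of its own, and further members and marker genes were named after their values were seen. Krtap classes were planned from protein composition and taken from family numbers instead. Motif searches used Python 3.11.15. Alternatives were moderation, array medians, quantile normalisation, a replicate block, 1 probe set per gene, no _s_at or _x_at probe sets, and each array left out.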

Additional observations from a re-analysis of the deposited data

Results flagged for a closer look

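Opposite directions of pRb loss in the 2 p107 backgrounds, without overlap of the arrays, drew attention to 4 probe sets. The tests of the difference itself did not pass in any of them. Krtap13-1 had -0.86 with p107 kept and 0.37 in p107-/- skin, an interaction of 1.23 ± 0.13 SE (limma, adjusted p = 0.113). Krtap15 had -1.33 and 0.11, an interaction of 1.43 ± 0.20 SE (adjusted p = 0.142). Krt32 had -0.69 and 0.51, an interaction of 1.20 ± 0.43 SE (adjusted p = 0.382). Krtap5-1 (1450540_x_at) had 0.28 and -2.18, an interaction of -2.46 ± 0.90 SE (adjusted p = 0.384).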

How the results depend on the processing

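The direction of the keratin and Krtap medians held in all alternatives run except the keratin median named below, whereas the number of calls depended on the test. The moderated limma test called 0 members for p107 loss in either pRb background, loss of both, pRb loss in p107-/- skin, the averaged p107 loss and any genotype difference. With replicate number as a block, 5 were called for loss of both, 4 for the averaged p107 loss and 0 in each of the others. Over all probe sets, the deviations of same-numbered arrays correlated from -0.131 to 0.105. Such low values cannot exclude that the numbers pair pools, and no label says whether they do. The main F test called 16 of 43 members for any genotype difference (37.2%, against 1.28% of all probe sets). Subtracting array medians left 4 calls for p107 loss in pRb-/- skin, 0 for pRb loss in p107-/- skin and 10 for any genotype difference, and quantile normalization left 3, 0 and 10. For loss of both, the 30 member calls became 29 with medians subtracted and 20 after quantile normalization, while those over all probe sets went from 666 to 606 and 370. Of 82 member calls over these comparisons, leaving out any genotype difference, 63 were kept with medians subtracted, 55 after quantile normalization and 9 with the block.

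With medians subtracted, the keratin median was -1.08 for pRb loss with p107 kept, -2.27 and -1.30 for p107 loss in pRb+/+ and pRb-/- skin, -0.06 for pRb loss in p107-/- skin, -1.75 for the averaged p107 loss and 1.00 for the interaction. The Krtap medians were -1.19, -2.01, -1.25, -0.46, -1.68 and 0.69. After quantile normalization the keratin median was -2.21 and -1.33 for p107 loss in pRb+/+ and pRb-/- skin, 0.08 for pRb loss in p107-/- skin, where it reversed, -2.23 for loss of both and 0.95 for the interaction. The Krtap medians were -1.94, -1.26, -0.37, -2.28 and 0.54. Without _s_at and _x_at probe sets the keratin median for pRb loss in p107-/- skin was -0.42. The median of all probe sets in that comparison was -0.33, and -0.07 and -0.05 under the 2 scalings. The cause of these shifts was not tested.

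Leaving out 1 array in turn gave 0 to 19 calls for loss of both, 0 to 9 for the averaged p107 loss and 0 in the other comparisons. The keratin median ran from -0.92 to -0.81 for pRb loss with p107 kept, -2.01 to -1.81 and -1.47 to -1.36 for p107 loss in pRb+/+ and pRb-/- skin, -0.37 to -0.33 for pRb loss in p107-/- skin, -2.39 to -2.30 for loss of both, -1.71 to -1.61 for the averaged p107 loss and 0.42 to 0.73 for the interaction. The Krtap medians ran from -1.14 to -0.90, -1.75 to -1.65, -1.41 to -1.28, -0.76 to -0.66, -2.42 to -2.34, -1.61 to -1.55 and 0.23 to 0.35. A genotype left with 1 array was assumed to vary like the others. Signal over background is unknown for every probe set, so dim members cannot be told from bright ones.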
